A study of Mus musculus with 6 samples.

Results

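The transcripts described here encode glycolytic enzymes on the way from glucose 6-phosphate to lactate, phosphofructokinase left out: Gpi1, Aldoa, Tpi1, Gapdh, Pgk1, Pgam2, Eno3, Pkm, Ldha and Ldhb. They were taken by gene symbol from the table of read counts per gene, where all 10 symbols had a row with values, among 17034 genes with values. All 10 passed the filter on low counts. Glycolysis splits glucose into pyruvate and yields ATP without oxygen, and fast-twitch muscle fibres depend on it for short, forceful work. Lactate dehydrogenase, which turns pyruvate into lactate, is a tetramer of the subunits encoded by Ldha, the form that predominates in fast glycolytic muscle, and Ldhb, the form that predominates in heart and oxidative muscle. Several of the other steps also have a muscle form, such as Pgam2 and Eno3, beside the form most other tissues use.

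The RNA came from the gastrocnemius, a calf muscle of mostly fast fibres, of male mice aged 8 weeks, with no drug or special diet given. Mice labelled TRa_mKO carried floxed alleles of Thra, which encodes thyroid hormone receptor alpha, and the transgene Myf5-Cre, and their WT littermates carried the same floxed alleles without Cre. Myf5-Cre acts from embryonic muscle precursors onward, so deletion is not limited to adult fibres, and Myf5-Cre is also known to be active in precursors of some other tissues, such as brown fat. Each genotype had 3 libraries of polyadenylated RNA from separate mice, all labelled batch 1. The comparison asks how the transcripts differ between the genotypes, in a study of muscle loss and mitophagy.

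Total counts lay between 12390527 and 14488500 per library. Values are CPM, counts scaled to a common library total after TMM scaling, which adjusts library sizes for differences in composition. Thra measured 78.8, 92.8 and 96.9 CPM in WT against 129, 118 and 101 CPM in libraries labelled TRa_mKO, so its gene-level count was not lower there (adjusted p = 0.117, edgeR quasi-likelihood test). Hr, a long-known target of thyroid hormone receptors, was 83.4 ± 6.37 CPM in WT against 7.79 ± 1.15 CPM in TRa_mKO (mean ± SD, n = 3 each). Which exons Cre removes from Thra was not given in the labels, so the Thra count checks neither deletion nor labels, and every direction below rests on the labels. Muscle markers were high in every library, and the 8 genes of that list summed to 81950 to 102900 CPM in WT against 105600 to 117900 CPM in TRa_mKO. Haemoglobin transcripts were highest in WT replicate 1 (1742 CPM) and TRa_mKO replicate 3 (1599 CPM), against 453 to 907 CPM in the other libraries.

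Of the 10 enzymes, Ldhb rose and 0 fell by the quasi-likelihood test of edgeR, with p-values adjusted by Benjamini-Hochberg over all 13118 genes tested. Over all genes, 2.52% were called higher and 1.65% lower, 4.17% in all. The fitted log2 fold changes, TRa_mKO over WT, were below 0 for the other 9 members, from -0.56 for Pkm to -0.07 for Gpi1 and Pgam2. The median of the 10 was -0.17, beside -0.0003 over all genes tested and 0.05 over the 204 genes with a mean of at least 500 CPM. Together the 10 transcripts held 5.15% ± 0.498 of all counts in WT and 4.41% ± 0.219 in TRa_mKO (mean ± SD, n = 3 each). That share was 5.29%, 5.57% and 4.60% in the WT libraries and 4.66%, 4.26% and 4.31% in TRa_mKO, with WT replicate 3 inside the TRa_mKO range. Ldhb and Pkm were the 2 members whose libraries did not overlap between genotypes, a pattern that 23.2% of all genes tested showed, 13.2% with TRa_mKO higher and 10.1% with TRa_mKO lower.

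**Figure D1:**
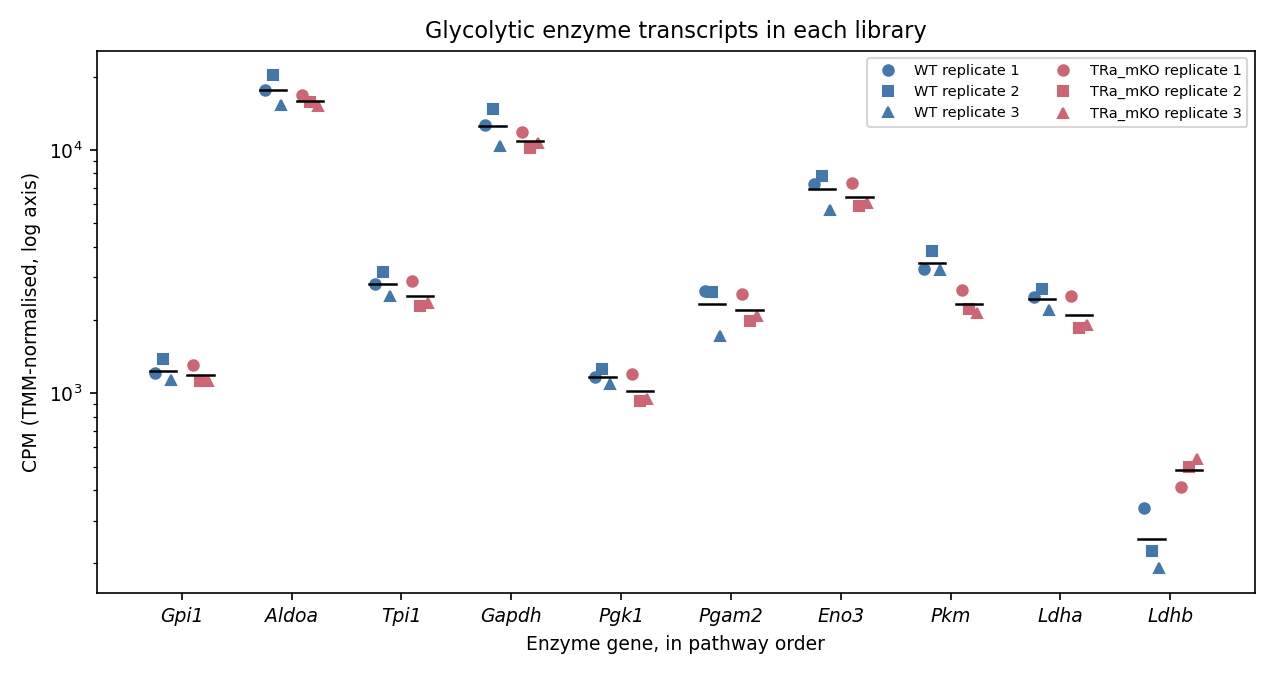
Normalised counts (CPM, log axis) of the 10 enzyme transcripts in pathway order, with 1 point per library (blue WT, red TRa_mKO, the marker shape giving the replicate) and a black line at the mean of 3 libraries. The genotypes overlap for 8 transcripts, whereas Pkm sits lower and Ldhb higher in every TRa_mKO library than in any WT library.

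Promoter sequences of Ldhb, Ldha and Pkm are shown because Ldhb was the member called, Ldha encodes the alternative subunit of the same enzyme, and Pkm was the other member whose genotypes did not overlap. The windows run from 250 bases before to 50 bases after a RefSeq start site, on the build GRCm38.p6, and are written 5′ to 3′ on the strand of the gene. Capitals mark every match, on either strand, to AGGTCA, the hexamer that thyroid hormone receptors and other nuclear receptors bind, usually in pairs, and to ACGTG, the core of the hypoxia response element.
Ldhb promoter, chr6:142507908-142508207, minus strand: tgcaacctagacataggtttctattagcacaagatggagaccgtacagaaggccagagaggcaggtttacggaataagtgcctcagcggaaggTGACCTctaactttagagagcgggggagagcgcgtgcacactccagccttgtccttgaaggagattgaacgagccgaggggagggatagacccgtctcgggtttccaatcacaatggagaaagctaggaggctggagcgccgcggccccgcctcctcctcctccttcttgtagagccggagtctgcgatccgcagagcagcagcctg
Ldha promoter, chr7:46845554-46845853, plus strand: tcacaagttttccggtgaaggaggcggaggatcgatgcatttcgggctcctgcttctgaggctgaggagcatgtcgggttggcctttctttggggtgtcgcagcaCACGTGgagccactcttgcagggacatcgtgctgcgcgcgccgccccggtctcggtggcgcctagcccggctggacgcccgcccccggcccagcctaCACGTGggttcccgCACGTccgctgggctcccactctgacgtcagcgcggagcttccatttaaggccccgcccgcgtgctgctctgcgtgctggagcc
Pkm promoter, chr9:59656977-59657276, plus strand: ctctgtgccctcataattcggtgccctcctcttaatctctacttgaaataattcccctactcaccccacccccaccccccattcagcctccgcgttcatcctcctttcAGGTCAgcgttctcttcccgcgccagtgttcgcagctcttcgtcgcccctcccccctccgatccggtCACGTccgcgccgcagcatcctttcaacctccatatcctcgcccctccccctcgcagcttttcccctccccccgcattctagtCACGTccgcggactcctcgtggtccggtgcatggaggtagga
The Ldhb window held 1 match to AGGTCA, read on the opposite strand as TGACCT, and 0 matches to ACGTG. The Ldha window held 5 matches to ACGTG, because it has the palindrome CACGTG at 2 places and each of these matches ACGTG on both strands, beside 1 further match. It held 0 matches to AGGTCA. The Pkm window held 1 match to AGGTCA and 2 matches to ACGTG. Ldha and Pkm each had another RefSeq start, whose window held 0 matches to either motif (chr7:46846832-46847131 for Ldha, chr9:59656326-59656625 for Pkm). The window printed for each of these genes is thus the one with matches. For Pkm the window left out lies upstream of the printed one, and which start the muscle uses was not tested. AGGTCA occurred in 16.3% of all 32851 promoter windows of this length and ACGTG in 19.6%, and each was present in 6 of the 14 windows of the 10 enzyme genes, which belonged to 5 genes. For each motif these 6 include overlapping windows of Aldoa (chr7:126799205-126799504 and chr7:126799129-126799428) that hold the same site, counted in both. All matches given here are descriptions of letters in a window and were not tied to binding.

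None of the first enzymes of the series, which prepare and split the sugar phosphate, passed the test. Gpi1, glucose-6-phosphate isomerase (gene ID 14751), measured 1208, 1383 and 1131 CPM in WT against 1306, 1123 and 1128 CPM in TRa_mKO. WT replicate 2 was highest, and TRa_mKO replicates 2 and 3 fell just below the lowest WT library, with a log2 fold change of -0.07 (SE 0.12, adjusted p = 0.845, edgeR); the sign turned to 0.02 without WT replicate 2. Aldoa, the aldolase of muscle (gene ID 11674), ranked 6 among all genes by mean CPM, not corrected for length, and measured 17590, 20220 and 15270 CPM in WT against 16770, 15720 and 15110 CPM in TRa_mKO. WT replicates 1 and 2 stood above all TRa_mKO libraries and WT replicate 3 among them (log2 fold change -0.16, SE 0.15, adjusted p = 0.642, edgeR). Tpi1, triosephosphate isomerase (gene ID 21991), which interconverts the products of aldolase, measured 2802, 3156 and 2515 CPM in WT against 2882, 2273 and 2356 CPM in TRa_mKO. A single TRa_mKO library, replicate 1, lay within the WT range, and the log2 fold change of -0.17 (SE 0.14) did not pass (adjusted p = 0.5745, edgeR).

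In the payoff phase, none of the enzymes up to enolase passed the test. Gapdh, glyceraldehyde-3-phosphate dehydrogenase (gene ID 14433), which reduces NAD to NADH, measured 12640, 14660 and 10330 CPM in WT against 11870, 10170 and 10670 CPM in TRa_mKO (log2 fold change -0.20, SE 0.16, adjusted p = 0.557, edgeR). The WT libraries spanned a wider range than the TRa_mKO libraries, and the lowest WT library fell below 2 of the TRa_mKO libraries. Pgk1, phosphoglycerate kinase (gene ID 18655), which makes the first ATP of the phase, measured 1165, 1254 and 1094 CPM in WT against 1202, 933 and 945 CPM in TRa_mKO. TRa_mKO replicates 2 and 3 were below every WT library and replicate 1 was not, for a log2 fold change of -0.19 (SE 0.13, adjusted p = 0.497, edgeR). Pgam2, the muscle phosphoglycerate mutase (gene ID 56012), measured 2630, 2608 and 1724 CPM in WT against 2565, 1982 and 2077 CPM in TRa_mKO. All its TRa_mKO libraries lay between the lowest and the highest WT library (log2 fold change -0.07, SE 0.18, adjusted p = 0.892, edgeR), and its sign turned to 0.02 without WT replicate 1 or without WT replicate 2. Eno3, the muscle enolase (gene ID 13808), measured 7246, 7814 and 5644 CPM in WT against 7300, 5854 and 6055 CPM in TRa_mKO. Again all TRa_mKO libraries lay inside the WT range (log2 fold change -0.11, SE 0.16, adjusted p = 0.789, edgeR).

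Pkm, pyruvate kinase (gene ID 18746), makes pyruvate and the second ATP of the payoff phase, and its libraries separated the genotypes. It measured 3242, 3855 and 3223 CPM in WT against 2655, 2211 and 2141 CPM in TRa_mKO, or 3440 ± 359 and 2336 ± 279 CPM (mean ± SD, n = 3 each). Every TRa_mKO library was below every WT library. Fitted on the log2 scale this was -0.56 (SE 0.14, 95% interval -0.86 to -0.25), 1.47-fold higher in WT, and it narrowly missed the threshold (adjusted p = 0.0526, edgeR quasi-likelihood test). It passed with DESeq2 (adjusted p = 0.00028), with edgeR on library sizes alone (0.0102), without a filter on low counts (0.0365), with the 10 most abundant genes left out (0.0485) and without TRa_mKO replicate 1 (0.033). Pkm makes the M1 and M2 forms of the enzyme by alternative splicing, and a count per gene does not separate them.

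Of the lactate dehydrogenase subunits, Ldhb rose and Ldha did not pass the test. Ldha (gene ID 16828), whose product favours the reduction of pyruvate to lactate, measured 2477, 2673 and 2202 CPM in WT against 2512, 1847 and 1910 CPM in TRa_mKO. TRa_mKO replicates 2 and 3 lay below all WT libraries and replicate 1 lay among them, and its difference missed the threshold (-0.23 on the log2 scale, SE 0.15, interval -0.56 to 0.10, adjusted p = 0.464, edgeR). Ldhb (gene ID 16832) measured 337, 226 and 191 CPM in WT against 411, 500 and 538 CPM in TRa_mKO, or 252 ± 76.3 and 483 ± 65.2 CPM (mean ± SD, n = 3 each). It was higher in all 3 TRa_mKO libraries than in any WT library, and WT replicate 1 was the WT library nearest to them. Ldhb rose 1.92-fold, or by 0.94 on the log2 scale (SE 0.21, 95% interval 0.47 to 1.41, adjusted p = 0.0419, edgeR quasi-likelihood test). The call held without the most haemoglobin-rich library of each genotype (log2 fold change 1.13, adjusted p = 0.0105, edgeR). It ended on library sizes alone (adjusted p = 0.0769) and without WT replicate 2 (0.118), WT replicate 3 (0.0835), TRa_mKO replicate 2 (0.143) or TRa_mKO replicate 3 (0.119), all by edgeR, with log2 fold changes between 0.78 and 0.91.

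**Figure D2:**
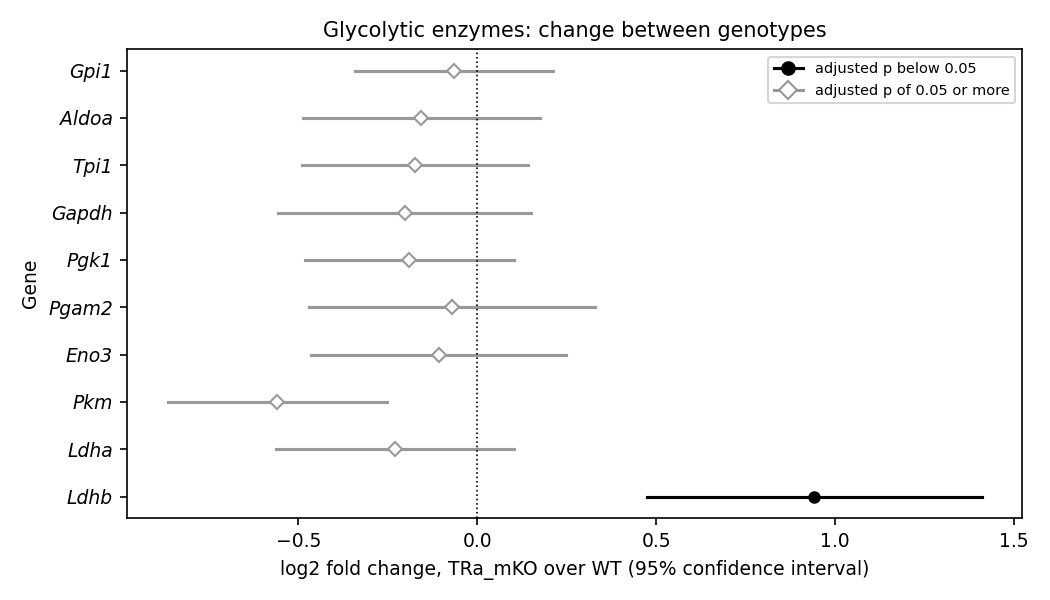
Fitted log2 fold changes, TRa_mKO over WT, of the 10 enzyme transcripts with 95% confidence intervals from edgeR (filled circles passed the adjusted p threshold of 0.05, open diamonds did not). Ldhb is to the right of 0 with an interval from 0.47 to 1.41, Pkm to the left with an interval from -0.86 to -0.25, and the other intervals include 0.

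The 8 members other than Ldhb and Pkm had log2 fold changes between -0.23 and -0.07, and their 95% confidence intervals lay between -0.56 and 0.33. The lower ends ran from -0.34 for Gpi1 to -0.56 for Gapdh and Ldha. Members largely shared their highest and lowest libraries within a genotype. WT replicate 2 held the highest WT value of 8 members and WT replicate 3 the lowest of all 10. TRa_mKO replicate 1 held the highest TRa_mKO value of 9 members, and the lowest of Ldhb.

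Ratios within a library do not depend on how libraries are scaled to each other. Ldhb made up 12.0%, 7.79% and 8.00% of Ldha plus Ldhb counts in WT and 14.1%, 21.3% and 22.0% in TRa_mKO (9.26% ± 2.37 and 19.1% ± 4.39, mean ± SD, n = 3 each). The genotypes did not overlap, and the difference of 9.86 percentage points gave p = 0.1 in a two-sided exact permutation test, the smallest that 3 against 3 allows (0.4 adjusted over the 4 shares compared). Divided by transcript length, Ldhb held 12.4% ± 3.05 of lactate dehydrogenase transcripts in WT and 24.7% ± 5.34 in TRa_mKO, so Ldha remained the larger part in every library. Pkm stood 0.17, 0.36 and 0.47 log2 units above the geometric mean of the other 9 members in WT and at -0.16, -0.19 and -0.27 in TRa_mKO, a shift of -0.54 between the means. On the same scale Ldhb shifted by 1.17, and the remaining 8 members by -0.18 (Ldha) to 0.02 (Pgam2). Of those 8, Gapdh, at -0.13, was the one whose genotypes did not overlap on this scale. For Pkm and these 8, the reference mean includes Ldhb, so the rise of Ldhb by itself lowers their values in TRa_mKO. Scaled to library totals instead, Gapdh overlapped between genotypes. How much of the Gapdh separation came from Ldhb in the reference was not tested.

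The 10 slow-fibre marker genes, which include the slow forms of myosin, troponin and the calcium pump, summed to 2990, 1360 and 1388 CPM in WT against 5282, 5566 and 7654 CPM in TRa_mKO. WT replicate 1 was thus the highest WT library in both Ldhb and the slow-fibre sum, and TRa_mKO replicate 3 the highest of all in both. These libraries were also the highest of their genotype in haemoglobin. Haemoglobin ordered the libraries within each genotype as Ldhb did (1742, 583 and 453 CPM in WT, 703, 907 and 1599 CPM in TRa_mKO). The slow-fibre sum did so in TRa_mKO, whereas in WT its order of replicates 2 and 3 was the reverse. Of the slow-fibre markers, 5 of 10 were called higher by edgeR, all 10 had genotypes that did not overlap, and 0 were at 0. Over all genes tested, 2.52% were called higher, and 13.2% did not overlap with TRa_mKO higher. The 11 fast-fibre markers summed to 101200 to 138200 CPM in WT against 119300 to 134500 CPM in TRa_mKO, and 1 of them, the myosin gene Myh2, was called higher (0.73 on the log2 scale, adjusted p = 0.0352, edgeR). The part of fibre makeup or of blood content in the Ldhb and Pkm values was not tested. In whole muscle, fewer cells of a type and less RNA per cell cannot be told apart. Of the other cell types, the 6 endothelial markers summed to 948 to 1171 CPM in WT against 698 to 972 CPM in TRa_mKO, and 0 were called. All 6 had log2 fold changes below 0, and 4 were lower at an unadjusted p under 0.05 by edgeR, beside 7.72% of all genes. Schwann cell markers summed to 1310, 321 and 1256 CPM in WT against 502 to 685 CPM in TRa_mKO, and blood, fibroblast, adipocyte and leukocyte sums overlapped between genotypes, with 0 members called in each.

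**Figure D3:**
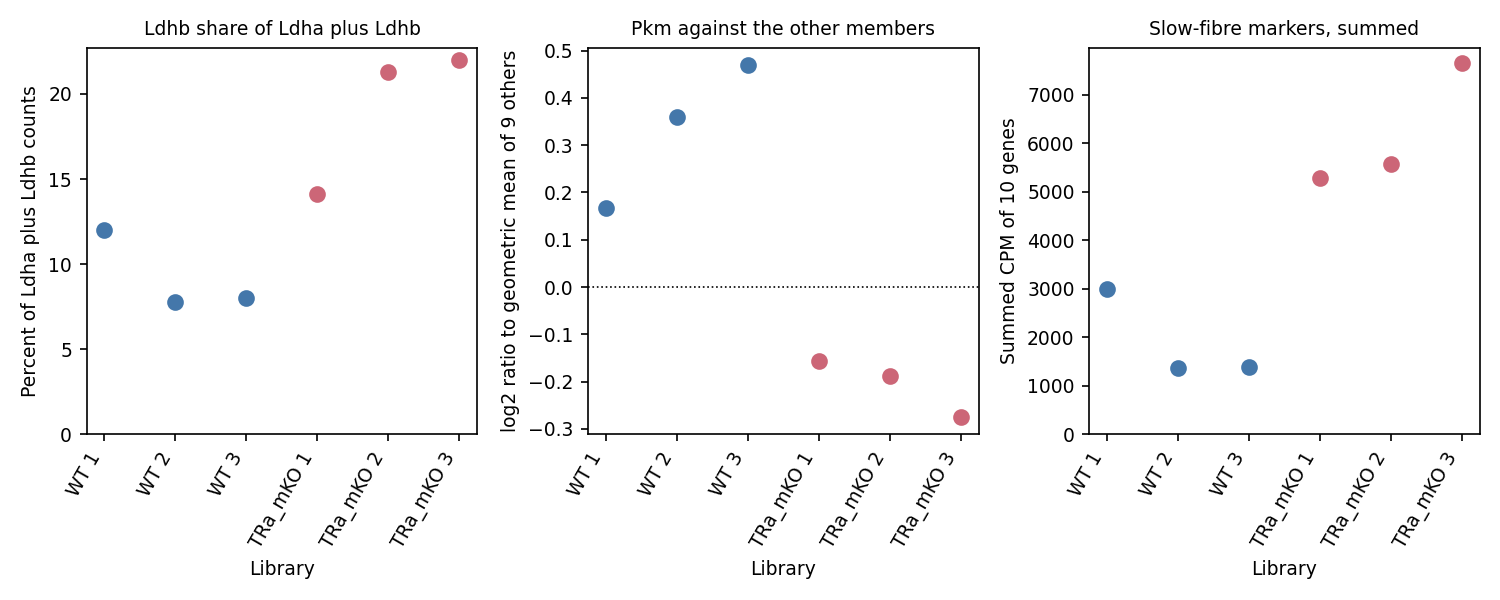
Each point is a library (blue WT, red TRa_mKO). The left panel plots the percent of Ldha plus Ldhb counts that were Ldhb, the middle panel the log2 ratio of Pkm to the geometric mean of the other 9 enzyme transcripts, and the right panel the summed CPM of 10 slow-fibre markers. Ldhb reaches 14.1% to 22.0% in TRa_mKO against 7.79% to 12.0% in WT, Pkm lies above 0 in all WT libraries and below 0 in all TRa_mKO libraries, and the slow-fibre sum is 5282 to 7654 CPM in TRa_mKO against 1360 to 2990 CPM in WT. The other 9 transcripts of the middle panel include Ldhb, and where 0 lies depends on that.

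Levels of different enzymes were compared per kilobase of the longest annotated coding transcript. In WT, Aldoa came first with 11420 ± 1599 CPM per kilobase, followed by Gapdh with 8834 ± 1525, Eno3 with 4413 ± 720 and Pgam2 with 2762 ± 615 (mean ± SD, n = 3). Tpi1, Pkm and Ldha followed with 1757 ± 200, 1414 ± 148 and 1350 ± 131 CPM per kilobase, and Pgk1, Gpi1 and Ldhb came last with 642 ± 44.1, 430 ± 44.9 and 193 ± 58.5. Neighbours in this order whose WT libraries overlapped were Aldoa and Gapdh, Tpi1 and Pkm, and Pkm and Ldha. In TRa_mKO the order was the same except that Ldha, with 1151 ± 202 CPM per kilobase, came before Pkm, with 960 ± 115, in 3 of 3 libraries, with overlapping ranges. In WT, Pkm was the higher of these in 2 of 3 libraries. Ldhb, with 370 ± 50 CPM per kilobase in TRa_mKO, overlapped there with Gpi1, with 411 ± 36.1, whereas in WT they were apart.

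Counts that were not whole occurred for 2 of the 10 members, Gapdh and Eno3, in all 6 libraries. Processed pseudogenes, copies of an mRNA inserted back into the genome, are abundant for Gapdh. In the GENCODE M21 transcripts, 218 other genes, 209 of them annotated as pseudogenes, shared at least 1 stretch of 50 bases with Gapdh. Of the genes that shared such stretches, 2 had counts in the table. The counts of one, the processed pseudogene Gm29667, and of Gapdh summed to a whole number in all 6 libraries (within 0.011), which no other row did. Gm29667 made up 0.107% to 0.14% of that sum. Eno3 shared no stretch of 50 bases with another gene, and its fractions were completed to whole numbers in all 6 libraries by Pfn1, which encodes profilin, an actin-binding protein. Pfn1 overlaps Eno3 on the opposite strand over 3675 bases of the RefSeq gene spans, although the libraries were stranded per the labels, and made up 3.30% to 3.85% of the summed counts. The Eno3 fractions thus completed those of an overlapping neighbour, and how the counting divided such reads was not given in the sources used here. Counting each pair as 1 gene left the values of Gapdh and Eno3 at -0.20 and -0.11 on the log2 scale. The 8 members with whole counts included Ldha, with 14 genes sharing 50 bases (14 pseudogenes), and Pkm, with 8 (7 pseudogenes), none of which had counts in the table. Gpi1 shared 50 bases with 51 genes, 38 of which had counts, and its own counts were whole. The extent shared differed from these counts of genes. The pseudogenes Pgk1-rs7 and Gm5537, without counts in the table, held 67.9% and 67.7% of the 50-base stretches of Pgk1, whose counts were whole. The largest such share was 58.2% for Gapdh, 18% for Gpi1, 15.6% for Pkm and 3.87% for Ldha.

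Other isoenzymes of the same steps took small shares of the counts. Of 12 such genes described here, 8 had values, 5 passed the filter and 0 were called in either direction (0 had an unadjusted p under 0.05, and DESeq2 and limma-voom called 0). Their median log2 fold change was -0.14. Pgam1, the phosphoglycerate mutase of most tissues, measured 35.9 ± 2.87 CPM in WT against 30.9 ± 3.67 CPM in TRa_mKO, and made up 1.57% ± 0.355 and 1.40% ± 0.280 of mutase counts. Eno1, the widely expressed enolase, measured 131 ± 7.28 and 116 ± 10.5 CPM, and Eno1, Eno1b and Eno2 together held 1.91% ± 0.226 of enolase counts in WT and 1.82% ± 0.125 in TRa_mKO. Neither share separated the genotypes by an exact permutation test (p = 0.6 and 0.7, adjusted p = 0.7 for both). Bpgm, bisphosphoglycerate mutase, measured 112 ± 3.47 CPM in WT against 112 ± 20.6 CPM in TRa_mKO, and Ldhd, the mitochondrial D-lactate dehydrogenase, 49.8 ± 6.22 and 45.3 ± 1.91 CPM.

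Upstream of the 10 enzymes, 4 of 18 tested genes of glucose entry and upper glycolysis described here fell and 0 rose, beside 1.65% of all genes called lower and 2.52% higher, with a median log2 fold change of -0.15. Fbp2, the muscle fructose bisphosphatase, which runs against glycolysis, fell from 65.4 ± 14.4 to 34.6 ± 3.88 CPM (1.89-fold higher in WT, adjusted p = 0.0138, edgeR). Pfkfb1 and Pfkfb4, bifunctional enzymes that make and break down an activator of phosphofructokinase, measured 73.5 ± 10.3 and 76.3 ± 7.44 CPM in WT against 43.4 ± 7.1 and 46.6 ± 5.23 CPM in TRa_mKO, and both fell (adjusted p = 0.016 for Pfkfb1 and 0.00653 for Pfkfb4, edgeR). Tigar, a fructose bisphosphatase that lowers that activator, fell from 203 ± 12.3 CPM in WT to 137 ± 9.45 CPM (adjusted p = 0.0107, edgeR). The main muscle kinases of this stretch did not pass. Pfkm, muscle phosphofructokinase, measured 3813 ± 299 CPM in WT against 3206 ± 201 CPM in TRa_mKO, with an adjusted p of 0.323 by edgeR, and Hk2, the main muscle hexokinase, 321 ± 15.8 and 296 ± 25.9 CPM (adjusted p = 0.612, edgeR). The libraries of Fbp2, Pfkfb1, Pfkfb4 and Tigar did not overlap between genotypes, and neither did those of Pfkm. Of the 18 genes, 5 were lower and 3 higher in TRa_mKO without overlap, beside 10.1% and 13.2% of all genes tested. Without the most haemoglobin-rich library of each genotype, Fbp2, Pfkfb1 and Tigar no longer passed (adjusted p = 0.127, 0.0889 and 0.0585, edgeR), and Pfkfb4 did. In that fit, with 2 libraries per genotype, the log2 fold change of Fbp2 was -0.90 (from -0.92), that of Tigar -0.60 (from -0.57) and that of Pfkfb1 -0.56 (from -0.76). Fbp2 also failed without TRa_mKO replicate 3 (0.0601), Pfkfb1 without WT replicate 2 (0.0502) and Tigar without TRa_mKO replicate 2 (0.0667).

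**Figure D4:**
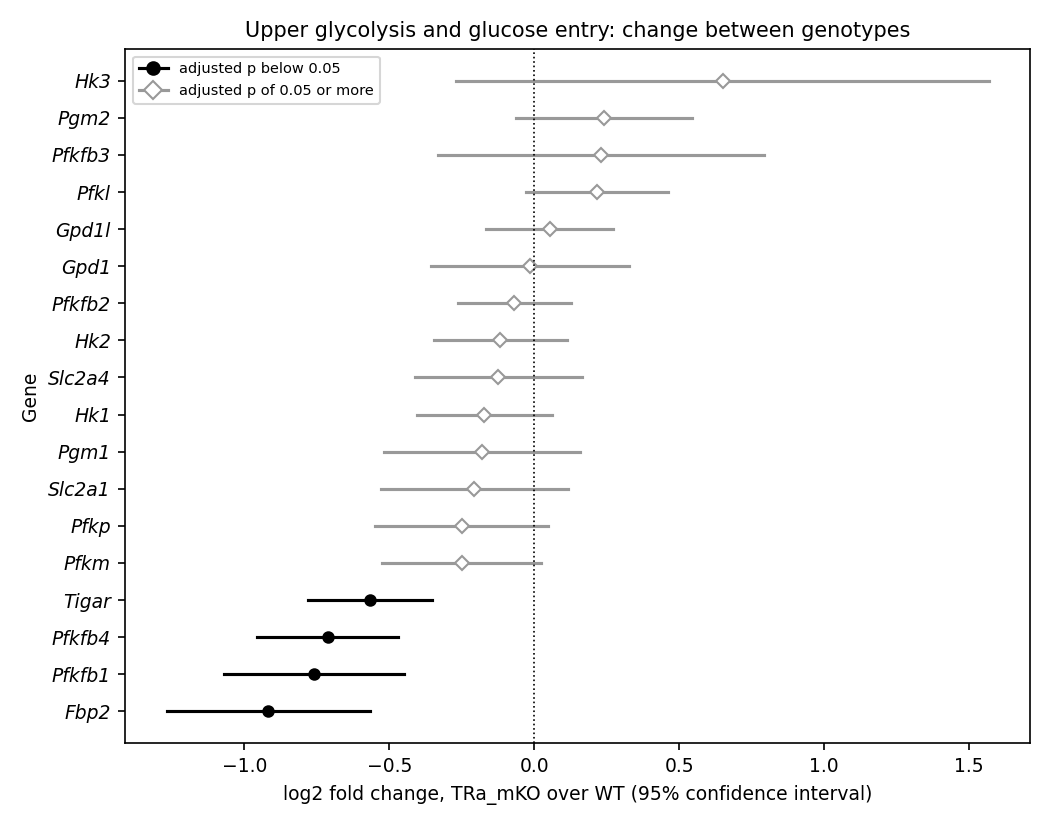
Fitted log2 fold changes, TRa_mKO over WT, of the 18 tested genes of glucose entry and upper glycolysis described here with 95% confidence intervals from edgeR, sorted by size (filled circles passed the adjusted p threshold of 0.05, open diamonds did not). The 4 filled points, Fbp2, Pfkfb1, Pfkfb4 and Tigar, all lie to the left of 0, and Pfkm and Hk2 have intervals that include 0.

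Downstream, none of 16 genes of pyruvate and lactate transport and of the shuttles that carry NADH electrons into mitochondria was called by edgeR (1 higher and 6 lower at an unadjusted p under 0.05, 2 lower by DESeq2 and 0 by limma-voom). Over all genes tested, 10.2% were higher and 7.72% lower at an unadjusted p under 0.05, 3.51% and 2.29% by DESeq2, and 2.37% and 1.5% by limma-voom. Slc16a3, the lactate exporter of fast fibres, measured 352 ± 40.8 CPM in WT against 236 ± 63.1 CPM in TRa_mKO (log2 fold change -0.58, SE 0.18, adjusted p = 0.117, edgeR), with all TRa_mKO libraries below all WT libraries. Slc16a1, the lactate transporter of oxidative fibres, measured 67.3 ± 6.95 and 69.2 ± 13.8 CPM (adjusted p = 0.926, edgeR). Mpc2, a subunit of the mitochondrial pyruvate carrier, measured 314 ± 44.1 and 249 ± 10.8 CPM (adjusted p = 0.169, edgeR), and Got1, an enzyme of the malate-aspartate shuttle, 375 ± 58.1 and 283 ± 18.2 CPM (adjusted p = 0.11, edgeR). Slc25a13, an aspartate-glutamate carrier, was low, at 1.26 ± 0.399 and 2.62 ± 0.61 CPM (adjusted p = 0.0941, edgeR). Genotypes did not overlap for 4 of the 16 genes with TRa_mKO lower, Slc16a3, Mpc2 and Got1 among them, and for 2 with TRa_mKO higher. Over all genes tested, these shares were 10.1% and 13.2%.

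Of 20 transcription factors and coactivators linked to glycolytic genes, 1 rose and 0 fell (6 higher and 2 lower at an unadjusted p under 0.05, 2 higher and 1 lower by DESeq2, 1 higher and 0 lower by limma-voom), and the median log2 fold change was 0.08. The shares of all genes were again 2.52% higher and 1.65% lower by edgeR, 10.2% and 7.72% at an unadjusted p under 0.05, and 3.51% and 2.29% by DESeq2. Esrrb, an orphan nuclear receptor, rose from 4.32 ± 0.232 CPM in WT to 7.46 ± 0.649 CPM, by 0.79 on the log2 scale (SE 0.15, adjusted p = 0.0189, edgeR). Its call ended on leaving out any library other than replicate 1 of either genotype, with adjusted p from 0.0568 (without WT replicate 2) to 0.0759 (without TRa_mKO replicate 2) by edgeR, and without the most haemoglobin-rich library of each genotype (0.12). Its log2 fold change in these fits lay between 0.72 and 0.79. Epas1, a hypoxia-inducible factor abundant in vessels and oxidative muscle, measured 406 ± 25.5 CPM in WT against 316 ± 24 CPM in TRa_mKO, with an adjusted p of 0.0904 by edgeR, and its relative Hif1a 54.7 ± 2.44 and 56.7 ± 6.4 CPM (adjusted p = 0.849, edgeR). Mlxip, a glucose-sensing factor, measured 90.1 ± 14.8 and 121 ± 13.2 CPM (adjusted p = 0.109, edgeR), and Ppargc1b, a coactivator of mitochondrial genes, 31 ± 7.71 and 43.5 ± 4.98 CPM (adjusted p = 0.165, edgeR).

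Among 5059 genes with a mean of at least 5 on the log2 CPM scale, those whose levels over the 6 libraries were most like Ldhb were Ech1 (Pearson r = 0.9964), an enzyme of fatty acid oxidation, Mcam (0.9957), a cell adhesion molecule, and Tpm2 (0.9948), a tropomyosin. Ech1 and Tpm2 were called higher in TRa_mKO (log2 fold changes 0.65 and 0.74, adjusted p = 0.0462 and 0.0399, edgeR), and Mcam, at 0.30, was not (adjusted p = 0.0936). Those most like Ldha were Cox10 (0.9943), which takes part in haem A synthesis, Nudt9 (0.9939) and Ppm1j (0.9923), and none of these was called. The correlations describe 6 libraries that share the genotype split and, with the best of 5059 taken, carry no test.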

How the data were processed

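Polyadenylated RNA was sequenced from 6 gastrocnemius samples, 3 per genotype. The authors deposited estimated counts of reads per gene, with no normalisation, per the file headers and values. Per the labels' protocols the libraries were stranded and paired-end. Per the submitters' processing notes, FastQC 0.11.9, MultiQC 1.12, Trimmomatic 0.39 and featureCounts were named, and the builds GRCm38.p6, mm10 and GRCm39, with no role. The aligner, the strand setting and the rule that gave counts that are not whole (9.65% to 10% of values per library) were not given in the sources used here. Of 74693 rows, 17034 held values.

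Counts were rounded, filtered (filterByExpr, minimum count 10), TMM-scaled and tested with edgeR 4.0.16 (robust quasi-likelihood, Benjamini-Hochberg over 13118 genes, threshold 0.05) in R 4.3.3, after a test on simulated data. DESeq2 1.42.0, limma 3.58.1 (voom), other scalings and filters, a replicate block and leaving out libraries were alternatives. For the 10 members the spread between libraries, not counting error, set the precision (common coefficient of variation over all genes 11.8%). Counting error weighs more for genes of few counts, such as Esrrb and Slc25a13. Shares were compared by exact permutation (scipy 1.17.1). Lengths and shared 50-base stretches came from GENCODE M21, and promoters from RefSeq.

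The members and lists were chosen with earlier results of these data known. Genes named were all members, the called genes of each list, otherwise up to 4 with the smallest p, and the 3 most like Ldhb and Ldha. Pfkm, Hk2, Slc16a1, Hif1a, Epas1, Mlxip, Ppargc1b and Myh2 were named outside this rule after their values were seen. Of the 4 isoenzyme shares tested together, 1 is not reported here, and 2 genes of the lists are likewise left out.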

Additional observations from a re-analysis of the deposited data

How the results depend on the processing

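Ldhb passed the threshold in 11 of 17 alternative settings and Pkm in 5 of 17, with log2 fold changes of 0.78 to 1.2 and -0.66 to -0.47. On library sizes alone, which shifted the median of all genes by -0.05, Ldhb (0.90, adjusted p = 0.0769, edgeR) no longer passed and Pkm (-0.61, 0.0102) did, leaving 0 members higher, 1 lower and 1 transport gene lower. Pkm also passed with the 10 most abundant genes left out (-0.57), without the filter (-0.56) and with DESeq2 (-0.56), each giving 1 member lower, as did an adjusted p below 0.1, while below 0.01 gave 0 members higher. DESeq2 also called 2 transport genes lower and 2 transcription factors higher and 1 lower. Same-numbered libraries gave r = -0.176, 0 and -0.006 between their deviations from the genotype means, and the other pairs gave -0.172 to 0.195. Such values from 3 libraries per genotype cannot tell whether the numbers pair the mice. With a replicate block 216 genes were called higher and 141 lower, Ldhb was at 0.98 (adjusted p = 0.0865, edgeR), 0 members were higher, and Tigar (-0.57, 0.0501) and Esrrb (0.79, 0.0531) no longer passed.

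Leaving out 1 library at a time gave 0 to 1 members higher and 0 to 1 lower, 0 to 3 transcription factors higher and 0 to 1 transport genes lower, with Ldhb between 0.78 and 1.2 and Pkm between -0.66 and -0.47. Over these fits Gpi1 lay between -0.14 and 0.02, Pgam2 between -0.25 and 0.02, the Pgam1 share difference between -0.318 and 0.0256 points and that of the other enolases between -0.197 and 0.0271 points. The sign turned for Gpi1 (0.02) and Pgam2 (0.02) without WT replicate 2, for Pgam2 (0.02) without WT replicate 1, and for both shares without WT replicate 3. Without the most haemoglobin-rich library of each genotype, Pgam2 turned to 0.07, 1 upper glycolysis gene was lower and 2 transcription factors higher. The cause of these shifts was not tested. Summing Gapdh with Gm29667 and Eno3 with Pfn1, chosen after seeing the data, changed no call among the members. Aldoa had no value with the 10 most abundant genes left out. Summing members with rows whose symbol adds -ps or -rs to the member's was not run, as none was found. With 3 mice per genotype, the 95% intervals of Ldha and Gapdh had lower ends of -0.563 and -0.556, about at the decrease of -0.559 fitted for Pkm. Of the 8 members other than Ldhb and Pkm, the rest had lower ends from -0.49 (Tpi1) to -0.34 (Gpi1).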
